A study of Mus musculus with 6 samples.

Results

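Mast cells store heparin and chondroitin sulphate in their granules, and the genes that make these sulphated sugar chains were followed here in mouse bone marrow-derived mast cells (BMMCs) kept with or without fibroblasts. The set holds 38 genes of the 29590 measured: the core protein serglycin, the enzymes that start, extend, sulphate and trim the chains, and the enzymes and transporter that supply their precursors. Members were taken by gene name from the noncontrol probes, and where a gene had several probes (11 members) the brightest by its mean over the arrays stood for it. There were 6 single-colour arrays, 1 for each group, and every array held RNA pooled from 3 samples. In 2 of the cocultures, wild-type BMMCs were kept on Lpar1-/- Swiss 3T3 fibroblasts, and BMMCs labelled Pla2g3-/- on wild-type Swiss 3T3 fibroblasts. Their counterparts were wild-type BMMCs on Lpar1+/+ Swiss 3T3 fibroblasts and Pla2g3+/+ BMMCs on wild-type Swiss 3T3 fibroblasts. The 2 arrays without fibroblasts held BMMCs labelled Pla2g3-/- and Pla2g3+/+ BMMCs.

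All BMMCs were grown from mouse bone marrow with interleukin-3 at 10 ng/ml, and the ages of the mice are not stated. The 4 cocultures lasted 4 days with stem cell factor at 100 ng/ml, which is not stated for the cultures without fibroblasts. The enzyme encoded by Pla2g3 is a phospholipase A2 that cells secrete, and LPAR1, on the cell surface, binds lysophosphatidic acid. Swiss 3T3 is an established mouse embryo fibroblast line, and its Lpar1-/- derivative was made with CRISPR/Cas9 and single-cell cloning, so a trait of the clone and loss of Lpar1 cannot be told apart. The comparisons ask how fibroblast contact, the Pla2g3 genotype of the mast cells and the Lpar1 genotype of the fibroblasts relate to the maturation of mast cells.

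Heparin is a highly sulphated form of heparan sulphate that connective tissue mast cells attach to serglycin, whereas mucosal and immature cultured mast cells carry mainly chondroitin sulphate, often disulphated as chondroitin sulphate E. A tetrasaccharide linker is first built on serines of the core protein. Exostosins then extend heparan chains, or chondroitin synthases and their partners extend chondroitin chains, and sulphotransferases use the donor PAPS to modify them in the Golgi. The chains bind proteases and histamine in the granule, and Ndst2, an N-deacetylase/N-sulphotransferase, is required for heparin in mouse mast cells.

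Signal is given on a log2 scale relative to the array's own 75th percentile, so 0 marks the 75th percentile and a difference of 1 is 2-fold. Comparison of a gene required a signal well above background on 1 or more of the arrays concerned, and it was counted as higher or lower from a 2-fold difference on. With 1 array per group no difference has a replicate check or a p-value. The pair of wild-type cocultures, both on slide 2, gave the yardstick: 95% of their log2 differences lay within 0.54 (SD 0.26, 21930 genes), and those of the members had an SD of 0.19 (34 genes). This range does not cover a difference between slides. The scanner software put the error of a member's difference at a median of 0.20 on the log2 scale, which covers the spot alone. The 75th percentile of intensity was 1230 to 1520, with 70.7% to 80.4% of spots well above background.

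Signal of the targeted gene Pla2g3 ran against the genotype labels. The probe used (chromosome 11, 3394109 to 3394168 on mm9) read -1.84 in the coculture labelled Pla2g3-/- and -7.31 in the Pla2g3+/+ coculture. Without fibroblasts it read 0.51 under the Pla2g3-/- label and -6.31 in Pla2g3+/+ cells. The labels do not state which part of the gene was deleted, so these arrays are written as labelled Pla2g3-/-, and every genotype direction rests on that label. The Lpar1 deletion is in the fibroblasts while the RNA came from the mast cell fraction, so its probe (-3.89 with Lpar1-/- and -4.14 with Lpar1+/+ fibroblasts) does not check that label. That fraction still held fibroblast marker signal in the cocultures. The Lpar1 probe read higher without fibroblasts than in any coculture, at -2.85 in labelled Pla2g3-/- and -2.84 in Pla2g3+/+ cells.

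Of the 38 members, 31 were well above background on all 6 arrays and 2 on none (the 3-O-sulphotransferase genes Hs3st3a1 and Hs3st3b1). The endosulphatase gene Sulf1, the heparanase gene Hpse, the chondroitin synthase gene Chsy3, the uronyl 2-O-sulphotransferase gene Ust and the dermatan sulphate epimerase gene Dse were well above background on some arrays. Over all genes, 19746 met this mark on all arrays and 4882 on none. In at least 1 of the 5 main comparisons, 13 of 36 compared members passed 2-fold, a share near the 35.7% of all compared genes that did. Between the wild-type cocultures, 0 of 35 compared members were at least 2-fold higher and 0 lower in wild-type BMMCs on Lpar1+/+ fibroblasts than in the Pla2g3+/+ coculture, against 0.803% and 0.166% of all compared genes.

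**Figure D1:**
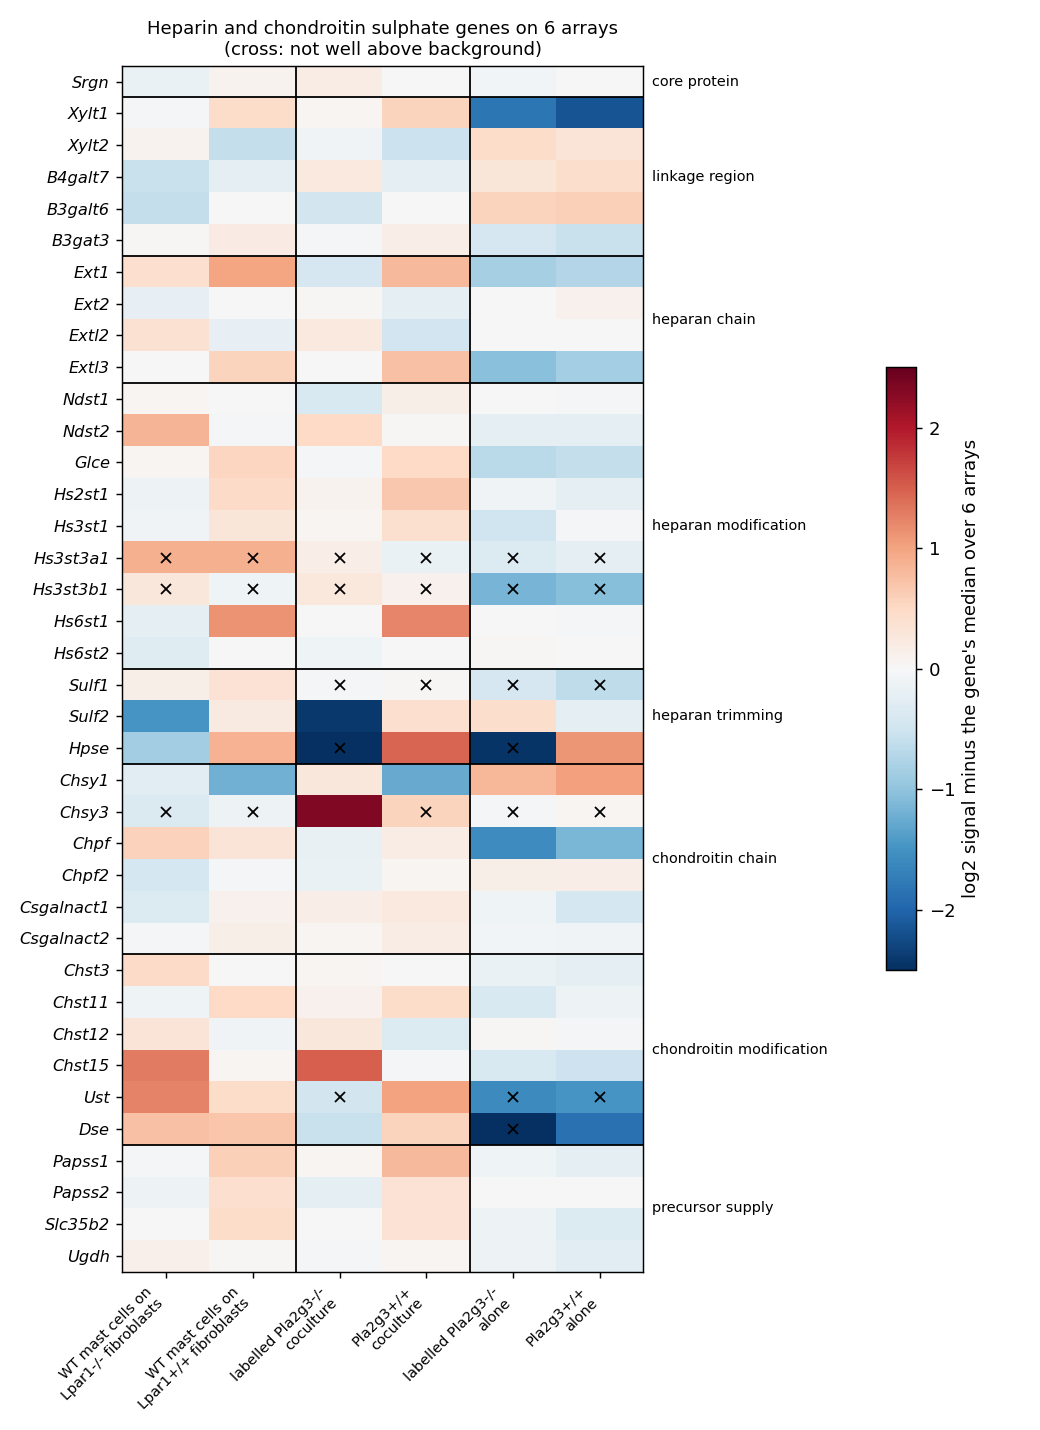
Heat map of the 38 members, grouped by role, on the 6 arrays (columns), coloured by log2 signal minus the gene's own median over the 6 arrays and capped at 2.5 in size. Crosses mark values not well above background. Srgn varies over 0.35 log2 units, while Chsy1 is brightest without fibroblasts and Xylt1 is dimmest there.

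Serglycin, the core protein that carries the chains in mast cell granules, had nearly the same signal on every array. Srgn (chromosome 10, 61957432 to 61957491) read 6.70 with Lpar1-/- and 6.95 with Lpar1+/+ fibroblasts, 7.05 and 6.85 in the labelled Pla2g3-/- and Pla2g3+/+ cocultures, and 6.80 and 6.88 without fibroblasts in the same order of genotypes. Its 6 values spanned 0.35, within the range of the wild-type pair. The bulk signal does not tell fewer cells of a type from less RNA per cell, for this or any other member.

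The question of the coculture comparisons is what 4 days with fibroblasts and stem cell factor did to these genes. In BMMCs labelled Pla2g3-/-, 5 of 33 compared members were at least 2-fold higher in coculture than alone, against 11.4% of all compared genes, and 2 were lower, against 7.30%. In Pla2g3+/+ BMMCs, 8 of 34 were higher, against 13.0% of all genes, and 1 was lower, against 7.52%. The median difference of the members was 0.16 in labelled Pla2g3-/- and 0.41 in Pla2g3+/+ cells, beside 0.12 and 0.13 over all genes. The cocultures lay on slide 2 and the cultures alone on slide 1, so slide, stem cell factor and coculture cannot be told apart.

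Enzymes of the linkage region split. Xylt1, a xylosyltransferase that starts every such chain by adding xylose to serine (chromosome 7, 124817001 to 124817060), read 0.77 with Lpar1-/- and 1.30 with Lpar1+/+ fibroblasts, 0.89 and 1.39 in the labelled Pla2g3-/- and Pla2g3+/+ cocultures, and -0.98 and -1.34 in these cells alone. All 4 cocultures lay above both cultures without fibroblasts. Xylt1 was 3.64-fold higher in coculture in labelled Pla2g3-/- cells and 6.62-fold higher in Pla2g3+/+ cells. A dimmer Xylt1 probe gave smaller log2 differences of 0.50 and 1.02 in the same comparisons. Its relative Xylt2 went the other way, with coculture differences of -0.54 and -0.85. B3galt6, the galactosyltransferase that adds the second galactose of the linker (chromosome 4, 155365285 to 155365344), read -2.39 and -1.82 with Lpar1-/- and Lpar1+/+ fibroblasts, -2.27 and -1.79 in the labelled Pla2g3-/- and Pla2g3+/+ cocultures, and -1.24 and -1.20 alone. It was thus lower in all 4 cocultures than in either culture alone, with coculture differences of -1.03 in labelled Pla2g3-/- and -0.59 in Pla2g3+/+ cells. With normexp background correction the first of these differences was -0.90, within 2-fold.

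Of the 4 genes grouped under the heparan chain (Ext1, Ext2, Extl2 and Extl3), Extl3 was at least 2-fold higher in both genotypes and Ext1 in Pla2g3+/+ cells. That is 1 higher and 0 lower in labelled Pla2g3-/- cells, against 11.4% and 7.30% of all genes. In Pla2g3+/+ cells it is 2 higher and 0 lower, against 13.0% and 7.52%. Extl3, which adds the first N-acetylglucosamine of the chain (chromosome 14, 65670930 to 65670989), read 0.38 and 0.96 with Lpar1-/- and Lpar1+/+ fibroblasts, 0.40 and 1.13 in the labelled Pla2g3-/- and Pla2g3+/+ cocultures, and -0.66 and -0.46 alone. It was 2.08-fold higher in coculture in labelled Pla2g3-/- cells and 3.01-fold higher in Pla2g3+/+ cells, and all 4 cocultures exceeded both cultures alone. Ext1, a subunit of the heparan polymerase (chromosome 15, 52904855 to 52904914), read -1.37 and -0.79 with Lpar1-/- and Lpar1+/+ fibroblasts, -2.19 and -0.97 in the labelled Pla2g3-/- and Pla2g3+/+ cocultures, and -2.61 and -2.51 alone. Its coculture difference was 1.33-fold in labelled Pla2g3-/- cells and 2.91-fold in Pla2g3+/+ cells, so that the labelled Pla2g3-/- coculture stayed near the cultures alone. A dimmer Ext1 probe showed the same order, with log2 differences of 0.04 and 2.74. Ext2, the polymerase partner of Ext1, differed by 0.01 and -0.35.

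Of 7 compared enzymes that modify the heparan chain, 0 were at least 2-fold higher in coculture in labelled Pla2g3-/- cells, against 11.4% of all genes, and 2 (Glce and Hs6st1) in Pla2g3+/+ cells, against 13.0%. Glce, the C5-epimerase that turns glucuronic into iduronic acid (chromosome 9, 61905257 to 61905316), read -0.34 and 0.15 with Lpar1-/- and Lpar1+/+ fibroblasts, -0.43 and 0.10 in the labelled Pla2g3-/- and Pla2g3+/+ cocultures, and -1.06 and -0.98 alone. Its coculture difference was 1.54-fold in labelled Pla2g3-/- and 2.12-fold in Pla2g3+/+ cells. Hs6st1, a 6-O-sulphotransferase (chromosome 1, 36162666 to 36162725), read 0.01 and 1.38 with Lpar1-/- and Lpar1+/+ fibroblasts, 0.25 and 1.48 in the labelled Pla2g3-/- and Pla2g3+/+ cocultures, and 0.26 and 0.22 alone. Only the wild-type cocultures were bright, 2.41-fold above the cells alone in the Pla2g3+/+ pair, while the labelled Pla2g3-/- coculture differed from its cells alone by -0.01. A dimmer Hs6st1 probe, well above background on all arrays, differed by 0.58 in labelled Pla2g3-/- and by 1.51 in Pla2g3+/+ cells. Both passed the range of the wild-type pair, which holds no slide difference. Ndst2, the heparin N-sulphotransferase (chromosome 14, 21543258 to 21543317), read 5.38 and 4.49 with Lpar1-/- and Lpar1+/+ fibroblasts, 5.02 and 4.56 in the labelled Pla2g3-/- and Pla2g3+/+ cocultures, and 4.30 and 4.30 alone. Its coculture differences of 0.71 and 0.26 stayed within 2-fold. Ndst1, the related enzyme of most tissues (chromosome 18), read 1.04 and 1.01 with Lpar1-/- and Lpar1+/+ fibroblasts, 0.61 and 1.15 in the labelled Pla2g3-/- and Pla2g3+/+ cocultures, and 0.98 and 0.97 alone, with coculture differences of -0.37 and 0.18.

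On the chondroitin side, 1 of 6 compared chain enzymes was higher and 0 lower in labelled Pla2g3-/- cells, against 11.4% and 7.30% of all genes. In Pla2g3+/+ cells 1 of 5 was higher (Chpf) and 1 lower (Chsy1), against 13.0% and 7.52%. Chsy1, the chondroitin synthase (chromosome 7, 73318609 to 73318668), read 4.01 and 3.09 with Lpar1-/- and Lpar1+/+ fibroblasts, 4.57 and 3.03 in the labelled Pla2g3-/- and Pla2g3+/+ cocultures, and 5.12 and 5.32 alone. Every coculture lay below both cultures alone, and the wild-type cocultures were the lowest. Its coculture difference was 1.46-fold lower in labelled Pla2g3-/- cells and 4.90-fold lower in Pla2g3+/+ cells, and a second Chsy1 probe gave log2 differences of -0.66 and -2.63. Chpf, the chondroitin polymerising factor that works with the synthase (chromosome 1, 75471198 to 75471257), read -0.95 and -1.20 with Lpar1-/- and Lpar1+/+ fibroblasts, -1.72 and -1.33 in the labelled Pla2g3-/- and Pla2g3+/+ cocultures, and -3.09 and -2.68 alone. It was 2.59-fold higher in coculture in labelled Pla2g3-/- cells and 2.54-fold higher in Pla2g3+/+ cells.

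Chondroitin modification genes were higher or within 2-fold. Chst15, the sulphotransferase that makes the disulphated unit of chondroitin sulphate E (chromosome 7, 139427955 to 139428014), read 2.41 and 1.16 with Lpar1-/- and Lpar1+/+ fibroblasts, 2.62 and 1.07 in the labelled Pla2g3-/- and Pla2g3+/+ cocultures, and 0.73 and 0.59 alone. It was 3.71-fold higher in coculture in labelled Pla2g3-/- cells and 1.39-fold higher in Pla2g3+/+ cells, and a dimmer probe gave log2 differences of 1.66 and 0.25. Dse, the epimerase that converts chondroitin to dermatan sulphate (chromosome 10, 33871876 to 33871935), read -5.14 and -5.18 with Lpar1-/- and Lpar1+/+ fibroblasts, -6.44 and -5.32 in the labelled Pla2g3-/- and Pla2g3+/+ cocultures, and -8.88, not well above background, and -7.74 alone. It was at least 3.20-fold higher in coculture in labelled Pla2g3-/- cells and 5.35-fold higher in Pla2g3+/+ cells. "At least" sets the bright array against a floor for the dim array, which is the dim probe's own signal or, if higher, the faintest signal there that still counted as well above background. With normexp background correction these Dse differences were 0.27 and 0.37.

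Precursor supply and trimming completed the set. Papss1, which makes the sulphate donor PAPS (chromosome 3, 131306415 to 131306474), read 0.36 and 1.02 with Lpar1-/- and Lpar1+/+ fibroblasts, 0.48 and 1.23 in the labelled Pla2g3-/- and Pla2g3+/+ cocultures, and 0.32 and 0.17 alone. Its coculture difference was 1.12-fold in labelled Pla2g3-/- and 2.09-fold in Pla2g3+/+ cells, and fell within 2-fold against the other wild-type coculture (0.85) or with normexp (0.90). All 4 supply genes (Papss1, Papss2, the PAPS transporter Slc35b2 and Ugdh, which makes UDP-glucuronic acid) differed upward in Pla2g3+/+ cells, and the median over the 4 was 0.11 in labelled Pla2g3-/- and 0.54 in Pla2g3+/+ cells. Sulf2, an endosulphatase that removes 6-O-sulphate from finished chains (chromosome 2, 165899667 to 165899726), read -4.72 and -3.02 with Lpar1-/- and Lpar1+/+ fibroblasts, -5.66 and -2.83 in the labelled Pla2g3-/- and Pla2g3+/+ cocultures, and -2.82 and -3.48 alone. Its coculture difference was 7.16-fold lower in labelled Pla2g3-/- cells and 1.57-fold higher in Pla2g3+/+ cells.

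The other members changed less. The 17 that were well above background on all 6 arrays and within 2-fold in all 5 main comparisons spanned differences from -0.54 (Xylt2) to 0.56 (Hs3st1, a 3-O-sulphotransferase) for coculture in labelled Pla2g3-/- cells. In Pla2g3+/+ cells they spanned -0.85 (Xylt2) to 0.88 (Hs2st1, the 2-O-sulphotransferase). Linkage genes B4galt7 (-0.68) and B3gat3 (0.72), which add the first galactose and the glucuronic acid of the linker, lay on opposite sides in Pla2g3+/+ cells. Between genotypes they spanned -0.45 to 0.35 without fibroblasts and -0.59 to 0.72 in coculture, and from -0.61 to 0.68 between Lpar1-/- and Lpar1+/+ fibroblasts. The dim genes gave little: Sulf1 was compared for Lpar1 alone (-0.21), Chsy3 was well above background in the labelled Pla2g3-/- coculture alone, and Ust was at least 1.35-fold higher in coculture in Pla2g3+/+ cells. The Sulf1 probes disagreed, since a second one, well above background on 1 array, gave a measured difference of 3.16 for Lpar1.

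**Figure D2:**
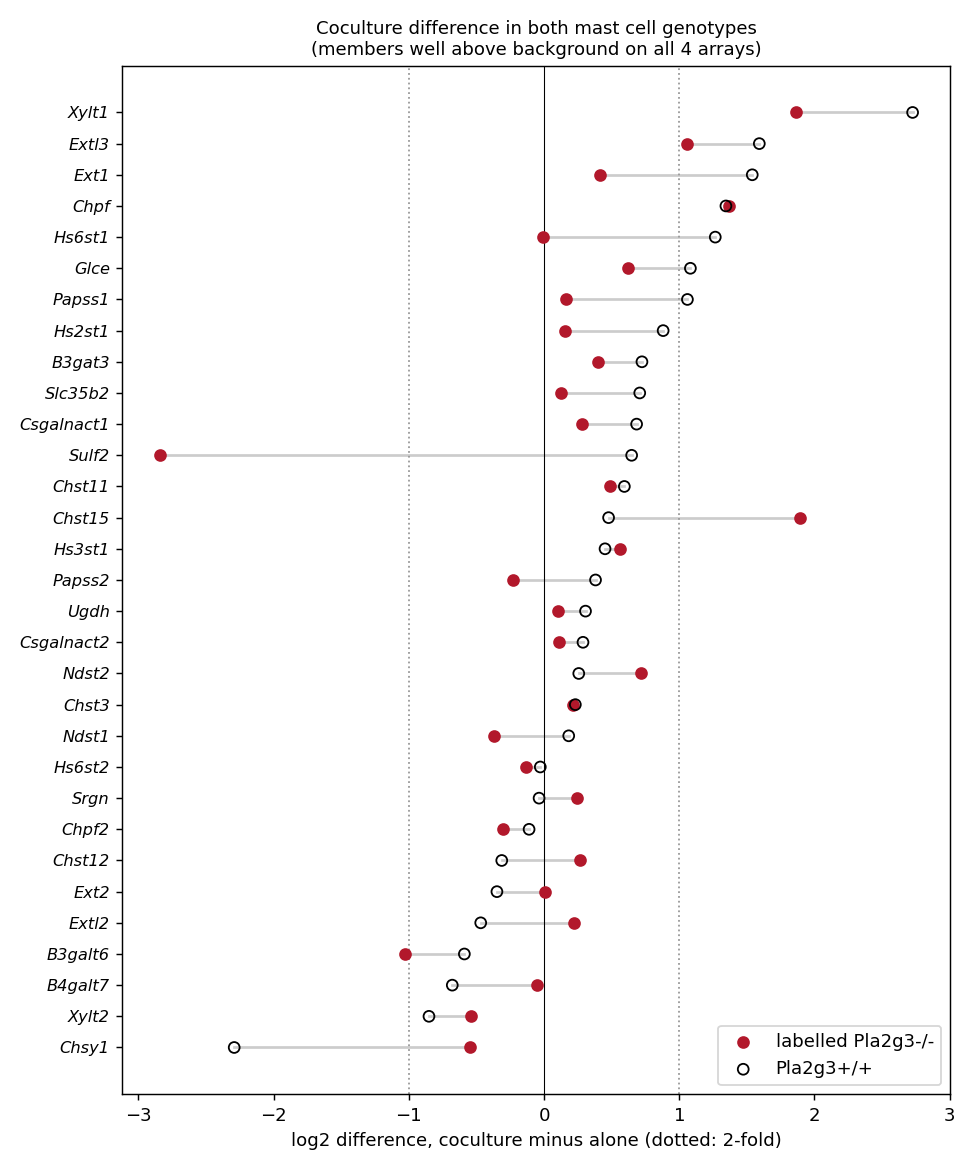
Log2 difference, coculture minus alone, of 31 members measured on all 4 arrays involved, for labelled Pla2g3-/- and Pla2g3+/+ cells, with dotted lines at 2-fold. Xylt1 (1.86 and 2.73), Extl3 and Chpf lie past 2-fold in both, while Chst15, Sulf2, Chsy1, Ext1 and Hs6st1 lie apart between the genotypes.

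The difference between these coculture effects, in which the slide cancels, passed 2-fold for 5 of 35 members. Chsy1 (3.35-fold) and Chst15 (2.67-fold) were higher in the labelled Pla2g3-/- effect relative to the Pla2g3+/+ effect, against 9.56% of all genes. Sulf2 (11.2-fold), Hs6st1 (2.42-fold) and Ext1 (2.18-fold) were lower, against 10.4% of all genes. The coculture effects on the dimmer Hs6st1 probe lay closer together, at 0.58 and 1.51, within 2-fold of each other. The median over the members was -0.21, beside -0.06 over all genes, and with quantile normalization it was -0.06, beside 0.00. No replicate stands behind the difference.

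RefSeq start-site windows of the 4 of these 5 genes that have an entry are shown because these members set the genotypes apart. Each window runs from 250 bases before to 50 after a start (GRCm38.p6, 5′ to 3′ along the gene). They are chr7:66109242-66109541 on the plus strand for Chsy1, chr7:132317179-132317478 on the minus strand for Chst15, chr1:36068150-36068449 on the plus strand for Hs6st1 and chr2:166155634-166155933 on the minus strand for Sulf2. Capitals mark matches to the motifs searched.
Chsy1: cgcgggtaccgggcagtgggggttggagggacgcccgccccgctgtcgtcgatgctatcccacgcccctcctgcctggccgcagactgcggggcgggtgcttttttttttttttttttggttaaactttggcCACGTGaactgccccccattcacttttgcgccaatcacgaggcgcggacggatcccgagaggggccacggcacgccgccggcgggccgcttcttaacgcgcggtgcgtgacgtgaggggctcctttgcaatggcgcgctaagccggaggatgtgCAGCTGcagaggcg
Chst15: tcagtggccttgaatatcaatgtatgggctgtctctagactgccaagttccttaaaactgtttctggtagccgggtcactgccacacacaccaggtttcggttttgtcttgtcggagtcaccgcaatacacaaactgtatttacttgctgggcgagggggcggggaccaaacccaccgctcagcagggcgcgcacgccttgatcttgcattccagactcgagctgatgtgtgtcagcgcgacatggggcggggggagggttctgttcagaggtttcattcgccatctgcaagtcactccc
Hs6st1: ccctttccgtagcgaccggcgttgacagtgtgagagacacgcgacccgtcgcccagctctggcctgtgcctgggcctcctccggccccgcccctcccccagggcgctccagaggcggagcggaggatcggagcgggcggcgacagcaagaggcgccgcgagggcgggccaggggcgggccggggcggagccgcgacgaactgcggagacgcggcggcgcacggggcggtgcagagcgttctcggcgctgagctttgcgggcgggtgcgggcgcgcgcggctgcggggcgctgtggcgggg
Sulf2: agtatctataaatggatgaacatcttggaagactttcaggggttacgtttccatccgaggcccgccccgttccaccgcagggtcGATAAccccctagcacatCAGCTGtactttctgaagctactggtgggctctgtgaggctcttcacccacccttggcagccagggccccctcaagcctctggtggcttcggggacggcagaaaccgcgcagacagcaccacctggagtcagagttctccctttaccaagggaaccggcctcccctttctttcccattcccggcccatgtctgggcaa

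The 7 motifs were searched on both strands, and no matches overlapped in these windows. The Chsy1 window held CACGTG at base 133 and CAGCTG at base 287. The Sulf2 window held GATAA at base 85 and CAGCTG at base 103, and a second Sulf2 window held GATAA at base 127. No match was found in the Hs6st1 window or in either Chst15 window. Over 32851 mouse windows, GATAA lay in 25.4%, CACGTG in 7.15%, CATGTG in 14.2%, CAGCTG in 16.3%, TGACTCA in 5.20%, TGACGTCA in 1.79% and GCGTGGGCG in 0.612%. Of the 40 windows of the 31 members with an entry, 6 held GATAA, 5 held CAGCTG, 4 held CACGTG, 2 held TGACGTCA (Chpf and Hs3st3a1) 1 held CATGTG and 0 held TGACTCA or GCGTGGGCG. A match describes letters only.

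Without fibroblasts the members hardly differed between genotypes. None of 33 compared members was at least 2-fold higher in labelled Pla2g3-/- cells than in Pla2g3+/+ cells, against 0.423% of all genes, and 1 was lower, against 1.58%. The members' median difference was 0.02 and that of all genes 0.00. The lower gene was Hpse, heparanase, which cuts heparan chains (chromosome 5, 101108565 to 101108624). It read -7.42 and -5.67 with Lpar1-/- and Lpar1+/+ fibroblasts, -9.52 and -5.09 in the labelled Pla2g3-/- and Pla2g3+/+ cocultures, and, alone, -9.00 and -5.44. Both labelled Pla2g3-/- values were not well above background. Hpse was at least 6.36-fold lower in labelled Pla2g3-/- cells alone. With normexp its difference was -0.52. Neutrophil and eosinophil markers were also lower there, 9 of 10 by at least 2-fold, with a summed level of 2.59 in labelled Pla2g3-/- and 41.8 in Pla2g3+/+ cells in units of the array's 75th percentile. Macrophage markers summed to 2.66 and 3.45, a sum in which Cd68 was the brightest. Of 9 compared, 3 (Lyz2, Mpeg1 and Mrc1) were at least 2-fold lower and 0 higher, and 8 differed downward (median -0.57). The part of these cells in the Hpse difference was not tested. Sulf2 was 1.58-fold higher in labelled Pla2g3-/- cells. Dse, not well above background there, was at least 1.30-fold lower, and its measured difference was -1.14.

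In coculture the genotypes differed more. Of 35 compared members, 2 were at least 2-fold higher in the labelled Pla2g3-/- coculture than in the Pla2g3+/+ coculture, against 9.10% of all genes, and 5 were lower, against 10.4%. Chst15 (2.92-fold) and Chsy1 (2.92-fold), both chondroitin enzymes, were higher. Hpse (at least 7.99-fold), Sulf2 (7.10-fold), Hs6st1 (2.35-fold), Ext1 (2.33-fold) and Dse (2.17-fold) were lower. Second probes well above background on all 6 arrays stayed past 2-fold for Chst15 (1.48), Chsy1 (1.79) and Ext1 (-2.14). The second Hs6st1 probe gave -0.96, within 2-fold. With normexp, Hpse (-0.52) and Dse (-0.17) were within 2-fold, leaving 3 lower. The members' median was -0.34, beside -0.08 over all genes, and -0.17 with normexp, beside 0.09. Of the 11 compared genes grouped under heparan chain and modification, 0 were higher and 2 lower (median -0.54). Of the 12 grouped under chondroitin chain and modification, 2 were higher and 1 lower (median -0.11). All 4 supply genes differed downward within 2-fold, with Papss1 at -0.75 and a median of -0.48. Ndst2 (0.46), Srgn (0.20) and Ndst1 (-0.54) stayed within the wild-type pair's 95% range of 0.54.

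The Lpar1 comparison asks what wild-type BMMCs did on fibroblasts without this receptor. Of 35 compared members, 1 was at least 2-fold higher with Lpar1-/- than with Lpar1+/+ fibroblasts, against 11.3% of all genes, and 3 were lower, against 8.84%. Chst15 was 2.38-fold higher. Hpse (3.36-fold), Sulf2 (3.25-fold) and Hs6st1 (2.59-fold) were lower, and with normexp Hpse was within 2-fold (-0.41). A dimmer Hpse probe, well above background on 3 arrays, gave -0.57, also within 2-fold. Chsy1 (1.89-fold) and Ndst2 (1.86-fold) differed upward by less than 2-fold, while the second Chsy1 probe gave a log2 difference of 1.02, just past 2-fold. With quantile normalization 3 members were higher, among them Ndst2 at 1.19. A dimmer probe of Hs6st1 gave -0.73 and the Chst15 one 1.02. The median over the members was -0.32, beside -0.05 over all genes, and that of the supply genes was -0.50. Ext1 (-0.57) and Dse (0.04) were within 2-fold here. The dimmer Ext1 probe, well above background on all 6 arrays, gave -1.68, past 2-fold.

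The labelled Pla2g3-/- and the Lpar1-/- comparisons share no array, though all 4 lay on slide 2. Chst15, Hs6st1 and Sulf2 passed 2-fold in the same direction in both, 3 of 6 called in the first and 3 of 3 in the second among the 32 members well above background on all 4 arrays. The dimmer Hs6st1 probe had the same direction but was within 2-fold in both (-0.96 and -0.73), while the dimmer Chst15 probe passed it in both (1.48 and 1.02). Over all genes, 3009 passed in the same direction in both, of 3881 called in the first and 4337 in the second. Of these 32 differences, 25 had the same sign (78.1%), and all 10 that passed the wild-type pair's range in both had it, beside 6450 of 6588 over all genes. Pearson's r across the 32 genes was 0.84 (Spearman's rho 0.78), beside 0.86 (0.83) and 82.0% over 20754 genes, so the members moved together across the comparisons about as genes did in general. Genes are not independent replicates.

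**Figure D3:**
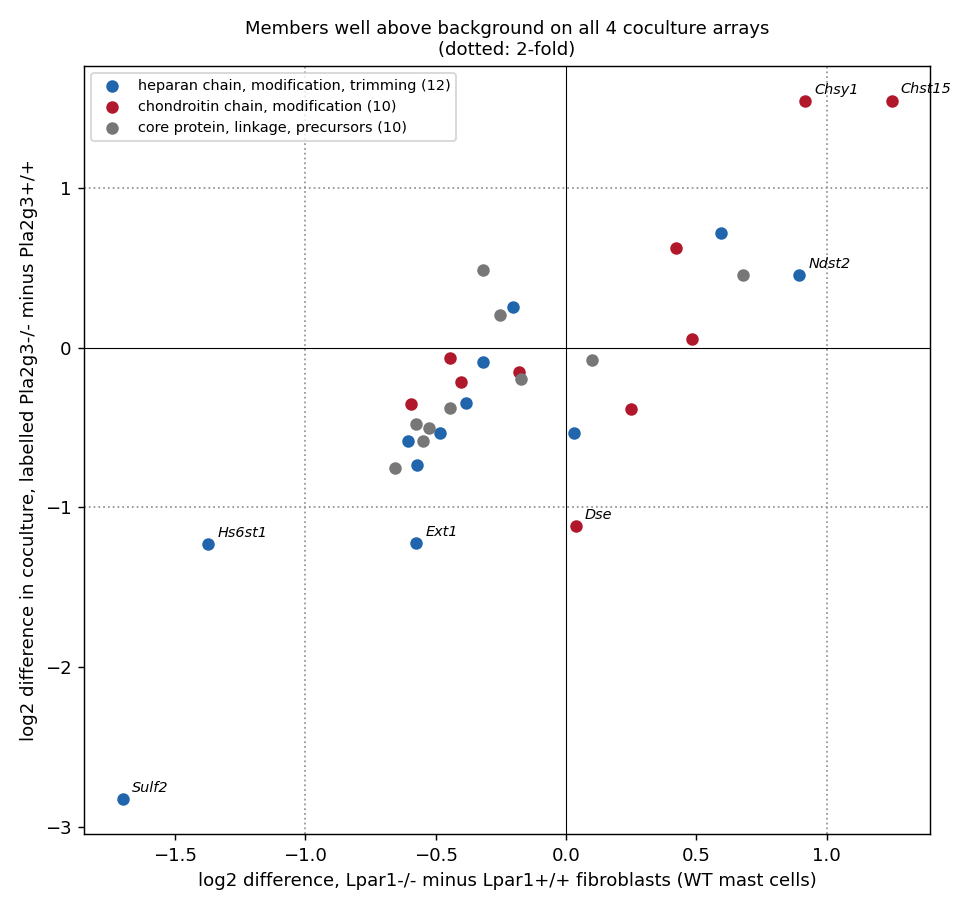
Log2 difference of the labelled Pla2g3-/- against the Pla2g3+/+ coculture (vertical axis) and of Lpar1-/- against Lpar1+/+ fibroblasts (horizontal axis) for 32 members, coloured by branch, with dotted lines at 2-fold. Sulf2 (-2.83 and -1.70) and Hs6st1 lie low in both, and Chst15 (1.55 and 1.25) lies high in both.

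**Figure D4:**
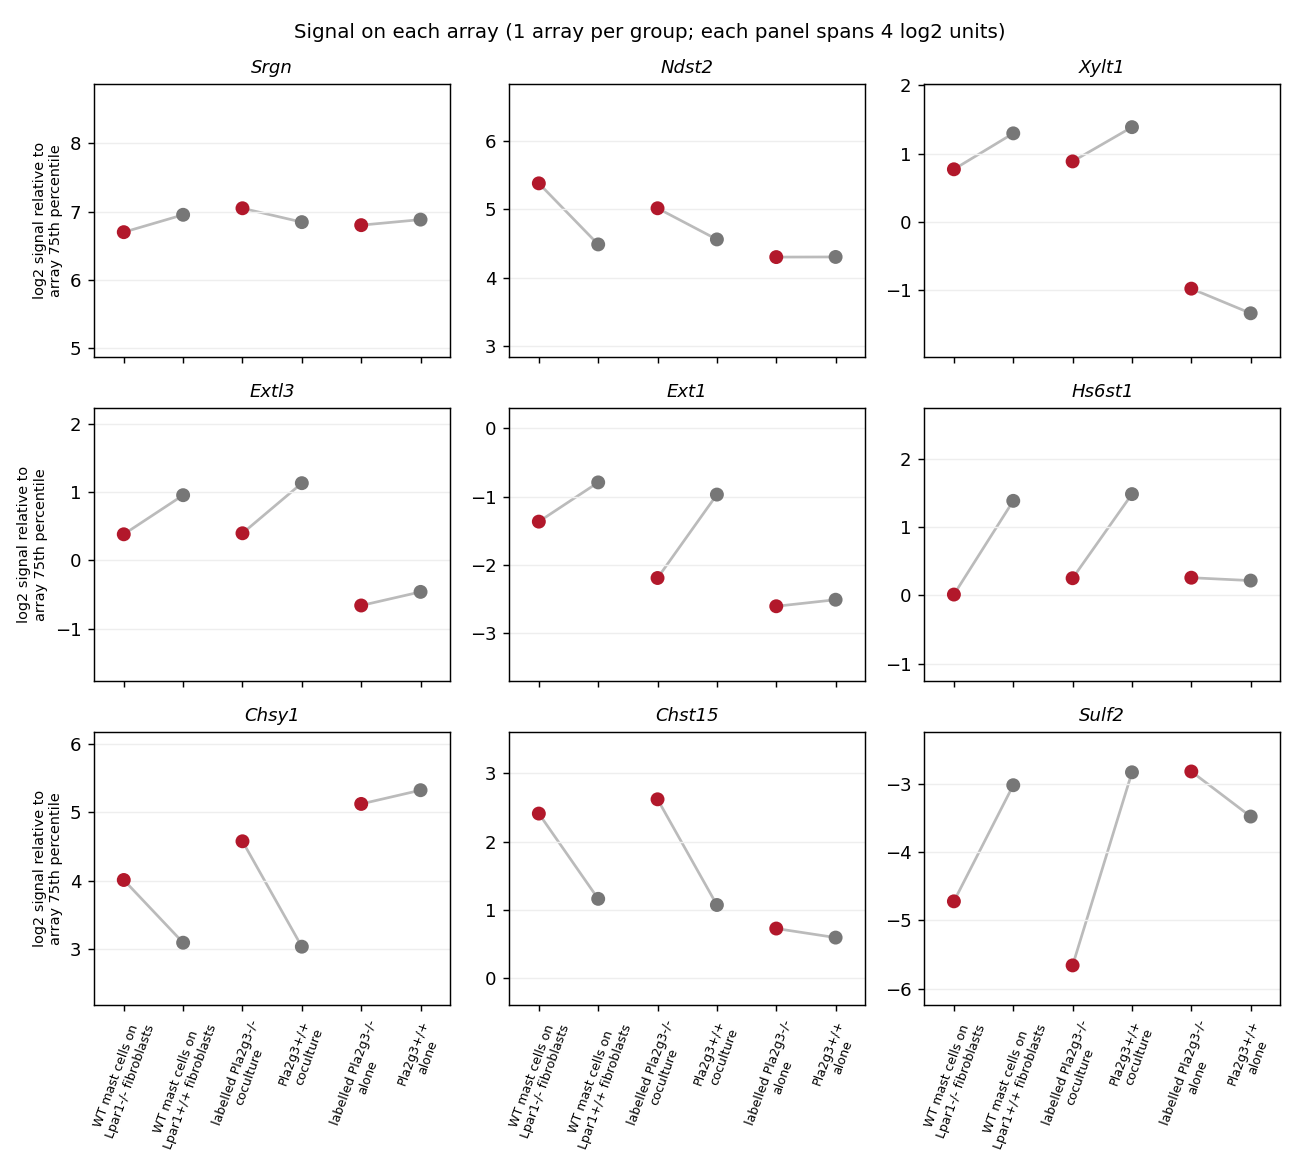
Log2 signal relative to the array's 75th percentile for 9 members on the 6 arrays, 1 point per array, with the Lpar1-/- or labelled Pla2g3-/- array in red left of its counterpart in grey. Srgn is level, Hs6st1 is high in the wild-type cocultures alone, and Chsy1 is highest in the 2 cultures without fibroblasts.

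Markers of other cells moved with these comparisons. Of 16 fibroblast markers, 14 to 15 were well above background in the cocultures and 7 in each culture alone, with Lum not well above background on any array. Their summed level was 30.4 with Lpar1-/- and 35.2 with Lpar1+/+ fibroblasts, 14.9 and 33.9 in the labelled Pla2g3-/- and Pla2g3+/+ cocultures, and 0.197 and 0.222 alone. In the labelled Pla2g3-/- coculture 8 of 14 fibroblast markers were at least 2-fold lower than in the Pla2g3+/+ coculture and 0 higher (median -1.18). With Lpar1-/- fibroblasts 4 of 15 were at least 2-fold higher and 0 lower, while 10 of the 15 differed downward (median -0.26). Dse differed by -1.12 and 0.04 in these comparisons, and Sulf2 and Hs6st1 were lower in both. The part of fibroblast RNA in any of these differences was not tested.

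Macrophage markers (10 genes, 8 to 10 well above background) summed to 2.06 with Lpar1-/- and 10.1 with Lpar1+/+ fibroblasts, 3.14 and 10.3 in the labelled Pla2g3-/- and Pla2g3+/+ cocultures, and 2.66 and 3.45 alone. Cd68 was the brightest of them on every array and weighs most in these sums. With Lpar1-/- fibroblasts 3 of 10 (Cd68, Mpeg1 and Mrc1) were at least 2-fold lower and 0 higher. There 4 differed upward and 6 downward (median -0.23). In the labelled Pla2g3-/- coculture 5 of 9 were lower and 0 higher (median -1.01). Over all genes 8.84% and 10.4% were lower in these comparisons. Neutrophil and eosinophil markers (10 genes, 7 to 10 well above background) summed to 13.3 with Lpar1-/- and 4.51 with Lpar1+/+ fibroblasts and to 1.86 and 4.17 in the labelled Pla2g3-/- and Pla2g3+/+ cocultures. The 10 mast cell markers, Kit, Fcer1a, Ms4a2 and Cpa3 among them, were well above background on every array, with summed levels of 439 to 623. Of these 10, 4 were at least 2-fold lower and 0 higher in both the labelled Pla2g3-/- coculture and the Lpar1-/- coculture than in their counterparts. The 4 were Hdc, Mcpt4, Tpsb2 and Tpsab1, which mark maturing mast cells. The other 6 stayed within 2-fold, with Kit (0.35 and 0.36) and Gata2 (0.77 and 0.69) upward in both and Cma1 (-0.26 and -0.53) downward. Of the 10, 4 differed upward and 6 downward in the first comparison, and 2 and 8 in the second. The part of macrophages, granulocytes and fibroblasts in the members' differences was not tested.

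**Figure D5:**
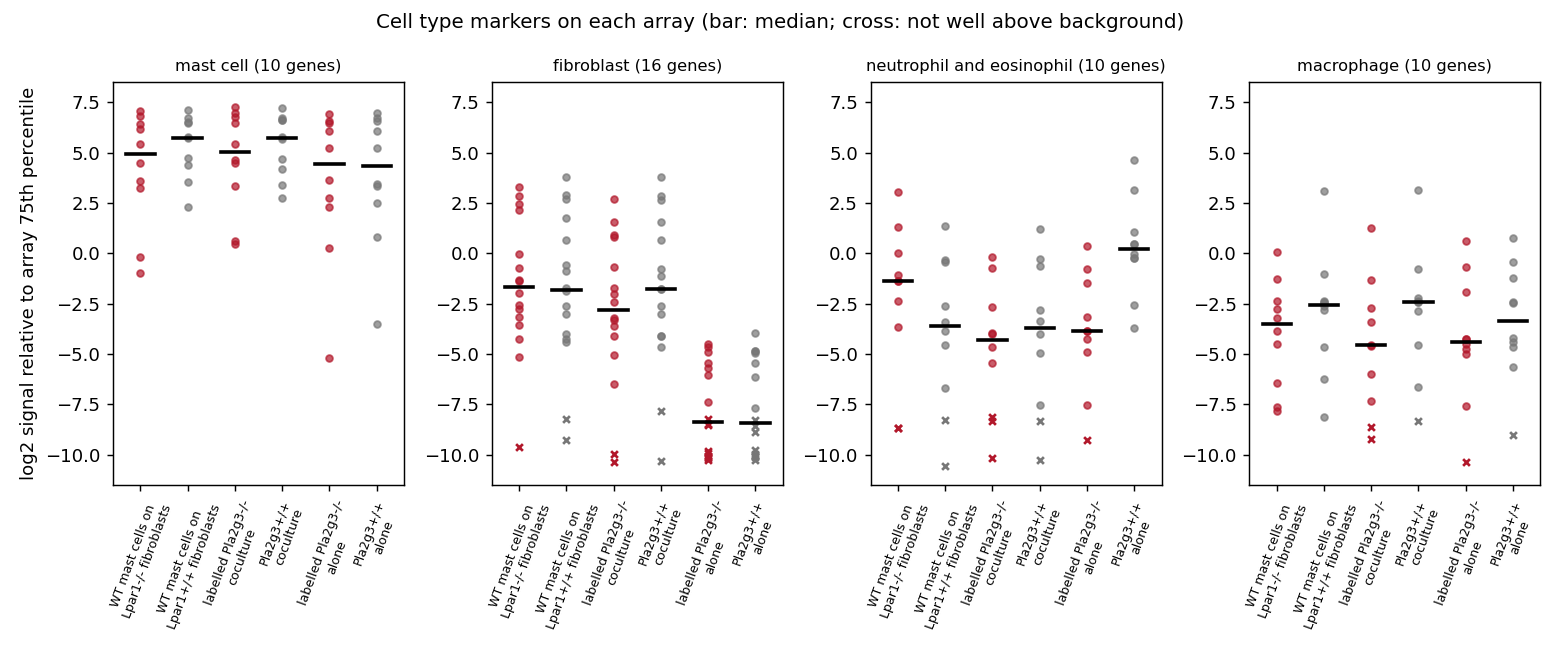
Log2 signal of each mast cell, fibroblast, neutrophil and eosinophil, and macrophage marker on the 6 arrays, 1 point per gene, with bars at the median and crosses for values not well above background. The fibroblast median is -2.81 to -1.67 in the cocultures and -8.36 and -8.43 without fibroblasts, while the mast cell median stays between 4.36 and 5.76.

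Probes of Chpf2, a partner of chondroitin synthase, disagreed. Its probes on chromosome 5 were compared because 1 of them matches a noncoding transcript accession, and the start of each is shown for identity (mm9, plus strand, first 30 of 60 bases).
Chpf2 noncoding-accession probe: cgtgtacaacaagtgtctgaaggtatatgg
Chpf2 brightest probe: ccgtacccagctagccatggctctgtttga
Chpf2 other probe: aggccttctttccggtccactttcaggagt

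The noncoding-accession probe (24100148 to 24100207) differed by 1.59 between the labelled Pla2g3-/- and Pla2g3+/+ cocultures and by 1.33 between Lpar1-/- and Lpar1+/+ fibroblasts. The brightest probe (24098128 to 24098187) differed by -0.21 and -0.40, and the other (24097719 to 24097778) by -0.21 and -0.51. The gene was compared by its brightest probe, and these probes were singled out after their values were seen.

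Genes of the same pathways outside the 38 were fixed as lists. Of 22 other synthesis genes, 1 was at least 2-fold higher and 3 were lower of 16 compared in the labelled Pla2g3-/- against the Pla2g3+/+ coculture, and 1 higher and 1 lower of 18 with Lpar1-/- against Lpar1+/+ fibroblasts. Over all genes, 9.10% were higher and 10.4% lower in the first comparison, and 11.3% and 8.84% in the second. The sulphate transporter Slc26a1 was higher in both (3.11-fold and 6.04-fold) and Ndst3, a further N-sulphotransferase, lower in both (2.46-fold and 2.28-fold). In coculture against cells alone, Extl1 was 6.73-fold lower in labelled Pla2g3-/- and 5.72-fold lower in Pla2g3+/+ cells. Pxylp1, a xylose phosphatase of the linker, was 3.22-fold and 2.57-fold higher. Of 16 lysosomal breakdown genes, 1 was higher and 0 lower in the first comparison and 2 were higher and 0 lower in the second, beside the same shares of all genes. Arsk, a sulphatase that acts on 2-sulphoglucuronate, was higher in both (2.46-fold and 3.10-fold), and the hyaluronidase gene Hyal1 was 2.54-fold higher in the second. A dimmer Hyal1 probe, well above background on all 6 arrays, went the other way there (-0.30).

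Other core proteins moved with coculture. Of 23, 10 of 21 compared were higher and 1 lower in labelled Pla2g3-/- cells, and 11 of 22 higher and 3 lower in Pla2g3+/+ cells, with a median of 0.96 and 1.17. Over all genes, 11.4% were higher and 7.30% lower in labelled Pla2g3-/- cells, and 13.0% and 7.52% in Pla2g3+/+ cells. Vcan, versican, was 5.96-fold and 4.90-fold lower. Sdc4, a syndecan, had a bound of 37.6-fold higher in labelled Pla2g3-/- and 59.6-fold higher in Pla2g3+/+ cells, beside the fibroblast markers above, and its part from fibroblast RNA was not tested. Nrp1, a receptor that can carry such chains, was 16.3-fold lower in the labelled Pla2g3-/- coculture than in the Pla2g3+/+ coculture and 16.6-fold lower with Lpar1-/- than with Lpar1+/+ fibroblasts.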

How the data were processed

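Values came from 6 Agilent single-colour (Cy3) arrays of pooled RNA, 200 ng each per the labels' protocols. The authors' intensity values are Feature Extraction 12.1.1.1 processed signals, per the file headers, background-subtracted and detrended with a surrogate for dim spots. The deposited table holds a linear signal that equalled the processed intensity divided by 1 constant per array (1230.44 to 1520.37), with column medians of 0.0338 to 0.0483, so its scale was settled and no centring was found. Here log2 of the processed intensity minus the array's 75th percentile over 43020 noncontrol spots was used. Spots marked as outliers (84 to 115 per array) were dropped, and no spot was saturated.

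Accessions of assembly GRCm38.p6 named 32954 spots, symbols 3069 and synonyms 16, and 6930 kept the file's name. Probe positions are mm9 as deposited, and no mm9 annotation was used. A difference with 1 array not well above background is a bound, whereas the written design had the measured difference, which is kept as an alternative chosen after seeing the data. The members and gene lists were chosen with earlier results of these data known. Values on all arrays are given for members past 2-fold in a main comparison and for Srgn, Ndst1 and Ndst2, and up to 3 highest and 3 lowest genes past 2-fold of the other lists may be named. Alternatives were normexp background correction with offset 50 (limma 3.58.1, R 4.3.3), quantile normalization, the deposited table, the mean of probes, other filters on dim probes, outlier spots kept and the other wild-type coculture. The calling script was tested on simulated data. The number of arrays limits the precision.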

Additional observations from a re-analysis of the deposited data

Results flagged for a closer look

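Sulf2 moved in opposite directions with coculture. Its log2 difference, coculture minus alone, was -2.84 under the Pla2g3-/- label and 0.65 in Pla2g3+/+ cells, each past the range of the wild-type pair. The Pla2g3+/+ rise was within 2-fold. With the other wild-type coculture (-3.02) in place, the rise over Pla2g3+/+ cells alone (-3.48) lay within the range of the wild-type pair. That pair shared a slide, whereas coculture and cells alone did not, so its range leaves out any slide difference. Sulf2 stands out because the groups moved opposite ways, with 1 array in each group, and the difference between them was not tested.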

How the results depend on the processing

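No paired analysis was possible because each group has 1 array, and no array could be left out in turn for the same reason. None of the 33 calls changed direction, but some medians near 0 did. With normexp the members' median for genotype without fibroblasts was -0.0048 against 0.021, and that of all genes for coculture in Pla2g3+/+ cells was -0.0098 against 0.13. Of these calls, quantile normalization, the deposited table, the mean of probes, no filter, kept outlier spots and the measured difference in place of the bound each kept all, normexp kept 25, and requiring both arrays well above background kept 30, since the others had no value there. Against the other wild-type coculture 24 of 25 were kept. With normexp, members lower numbered 1 (main 2) for coculture in labelled Pla2g3-/- cells, 0 (main 1) for genotype without fibroblasts and 3 (main 5) for genotype in coculture. Genotype without fibroblasts gave 0 lower with both arrays well above background and 2 with the measured difference, which was chosen after seeing the data. The Lpar1 comparison gave 3 higher with quantile normalization and 2 with the mean of probes (main 1), a split of 3 higher and 3 lower under quantile normalization against 1 and 3. Members lower in it numbered 4 with the mean of probes and 2 with normexp (main 3). The normexp split for genotype in coculture was 2 higher and 3 lower against 2 and 5. The wild-type pair gave 1 higher with no filter (main 0). Quantile normalization moved the median of all genes in Pla2g3+/+ coculture from 0.13 to 0.00, and their calls split into 2200 higher and 2201 lower against 2948 and 1700. In labelled Pla2g3-/- cells they were 1910 and 1838 against 2547 and 1631. The members' median minus that of all genes was 0.35 in Pla2g3+/+ cells and 0.27 in the main setting. For genotype in coculture normexp moved the median of all genes from -0.08 to 0.09, and the members' median minus that of all genes was -0.26 against -0.27. This relative median was -0.11 with no filter and -0.18 against the other wild-type coculture, and the members' own median was -0.17 with normexp, -0.22 with quantile normalization, -0.20 with no filter and -0.23 against the other wild-type coculture. For the difference between the coculture effects, the relative median ran from -0.27 with normexp to -0.065 with quantile normalization against -0.14, and for coculture in labelled Pla2g3-/- cells it was 0.18 with quantile normalization against 0.038. The cause of these shifts was not tested. Signal near background limits Hpse, Sulf1, Dse, Ust and Chsy3.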
